A study of Homo sapiens with 10 samples.

Results

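The clustered replication-dependent histone genes are the entries whose names begin with HIST1H, HIST2H, HIST3H or HIST4H, and 72 of the 25593 entries in each expression table met that rule. By histone type they were 6 H1, 17 H2A, 20 H2B, 14 H3 and 15 H4 genes. By cluster, 55 belonged to HIST1 on chromosome 6, 13 to HIST2 on chromosome 1, 3 to HIST3 on chromosome 1 and 1 to HIST4 on chromosome 12. Expression was measured by RNA sequencing in 10 libraries of U2OS, a human osteosarcoma cell line, after 96 h with an siRNA. The line labelled p53 KO was treated with SET siRNA (n = 2) or control siRNA (n = 2), and the line labelled p53 WT with SET siRNA (n = 3) or control siRNA (n = 3). Both lines had received a CRISPR/Cas9 construct and were isolated as clones, the WT-labelled line with a control construct, so each line is 1 derived line and a difference between lines cannot be told apart from a difference between clones. The series text names SET as the target of the other construct while calling the resulting line a p53 knockout, and the groups here follow the sample labels. SET is a p53-binding histone chaperone that also inhibits protein phosphatase 2A, and the comparisons ask how its depletion and the p53 label each moved the histone genes. The libraries are called biological replicates without a statement of separate cultures, so the p-values reflect only how these libraries vary, which may be technical.

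Replication-dependent histone genes supply the core histones H2A, H2B, H3 and H4 and the linker histone H1 that package newly copied DNA, and they are transcribed mainly in S phase under the coactivator NPAT, a substrate of cyclin E and CDK2. Most of their mRNAs carry no poly(A) tail and end in a short hairpin that is bound by the protein SLBP, which directs their processing, export, translation and decay. Some of these genes, among them several of the most abundant here, can also give polyadenylated transcripts, which are known from differentiated or non-dividing cells. The labels name a TruSeq RNA kit, and whether poly(A) RNA was selected is not given in the sources used here, so the level of a gene cannot be read as the level of its hairpin-ended mRNA. In bulk RNA, fewer cells in S phase and less histone mRNA per cell cannot be told apart.

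The 3' hairpin is the sequence that sets these mRNAs apart, and it is shown for 8 members whose values are described below. It was searched in GENCODE release 29 transcripts as a stem of 6 bases starting with GG, a loop of 4 bases starting with TT and the exact complement of the stem, which is 16 bases in all. The capitals mark the hairpin, written as DNA from 5' to 3' on the strand of the gene, with the 5 bases on either side in lower case.
HIST1H2AC: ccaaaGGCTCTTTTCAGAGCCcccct
HIST2H2AA3: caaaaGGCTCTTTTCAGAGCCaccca
HIST1H2BD: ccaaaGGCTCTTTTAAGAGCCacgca
HIST2H2BE: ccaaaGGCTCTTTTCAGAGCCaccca
HIST1H3H: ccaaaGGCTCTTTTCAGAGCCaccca
HIST1H4H: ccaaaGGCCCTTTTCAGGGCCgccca
HIST1H4I: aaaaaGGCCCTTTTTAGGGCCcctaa
HIST2H4A: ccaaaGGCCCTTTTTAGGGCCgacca
The hairpin was found in a transcript of 30 of the 72 members, namely 6 of 17 H2A, 11 of 20 H2B, 5 of 14 H3, 8 of 15 H4 and 0 of 6 H1 genes. In all, 217 of 83129 protein-coding transcripts held these letters (0.261%), and 33 of the 217 (15.2%) came from members. The stem differed by type. All 8 H4 genes with a match carried a GGCCC stem, and all 22 H2A, H2B and H3 genes with a match carried a GGCTC stem. Annotated transcripts of some members run on past the hairpin, by up to 1128 bases for HIST1H2AC, 1729 bases for HIST2H2BE, 1655 bases for HIST1H4H and 212 bases for HIST1H4I, while those of HIST2H2AA3 end 35 bases after it. The models of HIST1H2BK, HIST1H1C, HIST1H2AG, HIST1H2BJ and HIST2H2AC held no such letters. For these, the 6 H1 genes and every other member without a match, this says nothing of the mRNAs themselves. Many of the models are short, such as 381 bases for HIST1H2BK and 642 bases for HIST1H1C, and may stop before a hairpin.

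The promoters of the 3 most abundant distinct genes are shown because 2 of these genes fell and 1 rose with SET siRNA in WT-labelled cells. The 150 bases before the start are from RefSeq on GRCh38.p14. They lie at chr6:26056471-26056620 on the minus strand for HIST1H1C, at chr6:27146859-27147008 on the minus strand for HIST1H2BK and at chr6:26124022-26124171 on the plus strand for HIST1H2AC, and capitals mark the motifs searched on both strands: the octamer ATTTGCAT, which the factor POU2F1 binds in H2B promoters, the TATA box as TATAAA, and the CCAAT box.
HIST1H1C: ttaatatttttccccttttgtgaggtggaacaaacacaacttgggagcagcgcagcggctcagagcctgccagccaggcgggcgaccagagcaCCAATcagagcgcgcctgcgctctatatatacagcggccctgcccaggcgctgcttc
HIST1H2BK: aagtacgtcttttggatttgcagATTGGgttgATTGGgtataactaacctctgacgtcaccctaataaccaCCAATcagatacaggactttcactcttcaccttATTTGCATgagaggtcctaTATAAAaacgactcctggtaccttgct
HIST1H2AC: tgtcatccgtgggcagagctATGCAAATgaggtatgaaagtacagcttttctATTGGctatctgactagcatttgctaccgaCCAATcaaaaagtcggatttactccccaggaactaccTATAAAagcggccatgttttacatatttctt
All 72 members matched a RefSeq gene and 65 had a promoter in the table. Within 250 bases before the start, the octamer was present in 11 of 16 H2A and 14 of 18 H2B promoters, in 1 of 12 H3 promoters, and in 0 of 6 H1 and 0 of 13 H4 promoters, against 454 of 27305 promoters of all genes (1.66%). TATAAA was in 3 of 6 H1, 12 of 16 H2A, 12 of 18 H2B, 9 of 12 H3 and 7 of 13 H4 promoters, against 11.1% of all promoters. CCAAT was in every H1, H2A, H2B and H3 promoter in the table and in 3 of 13 H4 promoters, against 33% of all promoters. The H3 promoter with the octamer, listed for HIST1H3D, is the same stretch as the promoter listed for the H2A gene HIST1H2AD. Many H2A and H2B genes share the stretch between them, so these promoters are not independent of each other. In the files' positions and GENCODE strands, an H2A and an H2B gene stood as a divergent pair at most 1000 bases apart in 13 cases, and both genes were tested in 7 of them.

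The siRNA target was reduced in both lines. SET had 14.9 and 14.9 FPKM (fragments counted per unit of gene length and of library size) in KO-labelled cells with SET siRNA, against 158 and 170 FPKM with control siRNA. In WT-labelled cells it had 12.3, 13.3 and 12.0 FPKM with SET siRNA, against 121, 125 and 126 FPKM with control siRNA. CDKN1A, the p53 target that inhibits cyclin-dependent kinases, had 6.84 and 6.51 FPKM in KO-labelled cells with control siRNA, against 163, 170 and 153 FPKM in WT-labelled cells with control siRNA. Of 9 osteoblast lineage markers, COL1A1, SPARC, SPP1, RUNX2 and ALPL passed the filter on low values, while SP7, IBSP, BGLAP and COL1A2 did not, the defining markers SP7 and IBSP being at or near 0. The 9 summed to 276 to 296 FPKM in KO-labelled cells with SET siRNA and 552 to 632 FPKM with control siRNA, and to 326 to 363 FPKM in WT-labelled cells with SET siRNA and 682 to 732 FPKM with control siRNA. With SET siRNA 4 of the 5 tested were lower in KO-labelled and 5 of 5 in WT-labelled cells, against 17.9% and 24.0% of all tested entries. Epithelial markers summed to 278 to 281 FPKM in KO-labelled cells with SET siRNA, 288 to 327 FPKM with control siRNA, and to 500 to 513 FPKM in WT-labelled cells with SET siRNA and 665 to 700 FPKM with control siRNA, mostly from KRT8 and KRT18. Of the 5 tested 4 were lower in KO-labelled than in WT-labelled cells with either siRNA, against 22.2% of all tested entries with control siRNA and 24.8% with SET siRNA. The part of the osteoblast and epithelial markers in the histone results was not tested. Blood markers summed to at most 10.5 FPKM and endothelial markers to at most 1.81 FPKM in any library.

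Few of the 72 genes gave most of the signal. Of them, 35 reached 1 FPKM in at least 2 libraries and were tested, 25 of HIST1, 9 of HIST2 and the single HIST4 gene, and none of HIST3. Another 21 were above 0 in some library without passing, with means of at most 0.636 FPKM, and 16 were listed at 0 in every library: 1 H1, 3 H2A, 5 H2B, 4 H3 and 3 H4 genes. The tested members had a median of 4.85 FPKM, against 11.6 FPKM for all 14813 tested entries. HIST1H2BK, an H2B gene, averaged 161 FPKM over the 10 libraries, and HIST1H1C, which encodes the linker histone H1.2, averaged 115 FPKM. These 2 genes held 46.4 to 51.3% of the members' summed FPKM in each library. Next came HIST1H2AC with 27.1 FPKM, HIST1H2BD with 27.0, the H4 genes HIST2H4A and HIST2H4B with 26.5 each, and the H2B gene HIST1H2BJ with 22.9 FPKM. H3 genes were low, led by HIST1H3H with 2.53, HIST1H3D with 2.47 and HIST2H3A with 2.06 FPKM. The sequencing depth is not given in the sources used here. The authors' confidence interval had a median half-width of 4.70% of the value for HIST1H2BK and 6.55% for HIST1H1C, but 75.6% for HIST1H4I and 121% for HIST1H4D, so values of about 1 FPKM are imprecise.

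**Figure D1:**
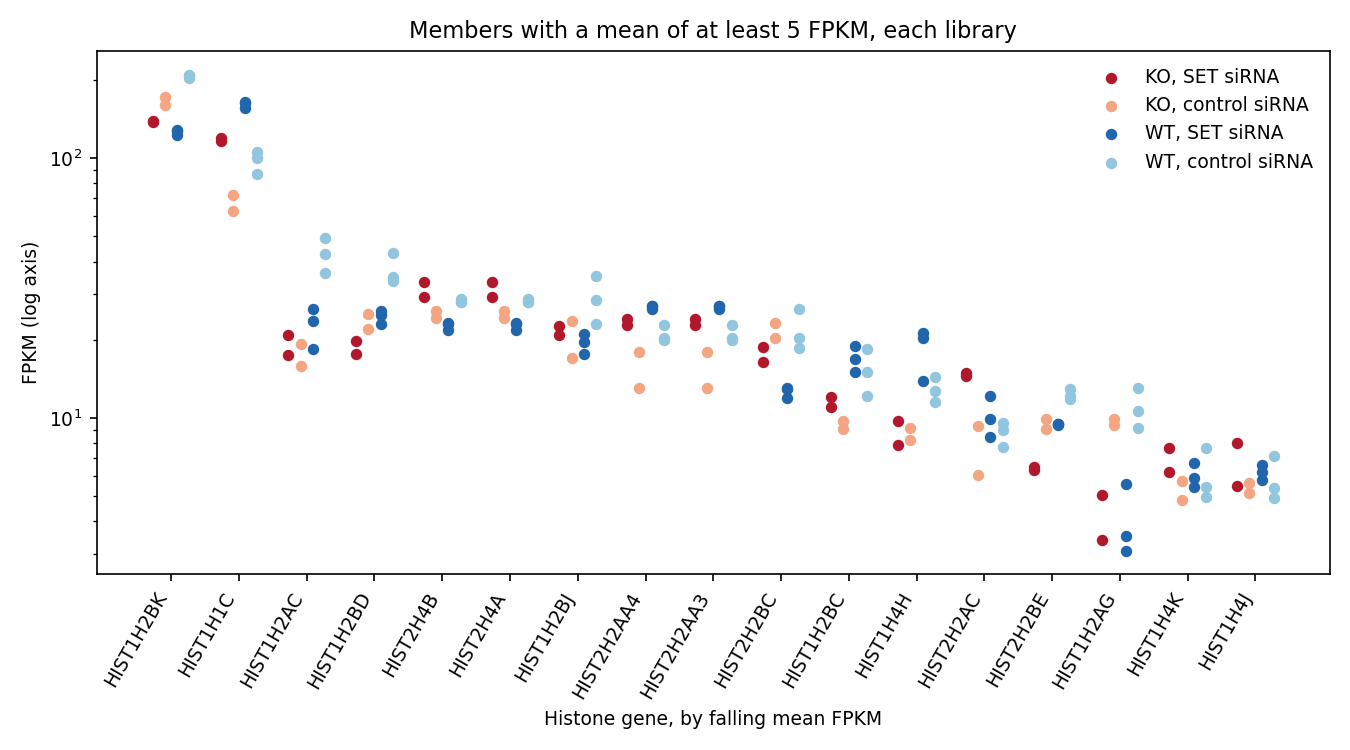
FPKM of the 17 members with a mean of at least 5 FPKM, on a log axis, with 1 point per library coloured by group. HIST1H2BK and HIST1H1C stand above the other 15, whose means lie at or below 27.1 FPKM.

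Several entries could not be separated. HIST2H4A and HIST2H4B had equal values in 10 of 10 libraries, and HIST2H2AA3 with HIST2H2AA4 and HIST2H3A with HIST2H3C in 9 of 10, within 0.001 of the value, so reads shared between near-identical copies cannot be assigned to 1 of them. HIST1H4I (chr6:27107088-27107457) lies within the positions given for HIST1H2BK (chr6:27106072-27114637), and HIST1H2AD (chr6:26199012-26199471) overlaps HIST1H3D (chr6:26197012-26199464). These positions are those of the files, counted from 1, in a build that is not given in the sources used here. Their values are uncertain to the extent that reads could be assigned to either gene. HIST1H2BK and HIST1H4I had a Pearson r of 0.555 over the 10 libraries, as a description.

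With SET siRNA in KO-labelled cells, the linker gene HIST1H1C, 3 H2A entries of HIST2 and an H4 pair rose, while 2 H2A and 2 H2B genes fell. Changes are in log2(FPKM + 1), and a member was called where limma's Benjamini-Hochberg adjusted p over all tested entries was below 0.05. Of 35 tested members 6 were called higher (17.1%), against 19.8% of all tested entries, and 4 were called lower (11.4%), against 17.9% of all. Their median log2 change was 0.03, against 0.02 over all tested entries, and both shares were below those of all entries. HIST1H1C had 117 and 120 FPKM in KO-labelled cells with SET siRNA, against 72.1 and 62.4 FPKM with control siRNA, a log2 change of 0.81 (SE 0.09, limma adjusted p = 0.000227). All values with SET siRNA lay above those with control siRNA. HIST2H2AC, an H2A gene of HIST2, had 14.9 and 14.5 FPKM with SET siRNA, against 9.30 and 6.01 FPKM with control siRNA, a log2 change of 0.89 (SE 0.19, limma adjusted p = 0.00622). HIST2H2AA3 and its copy HIST2H2AA4, also H2A genes, both rose by 0.58 (SE 0.12, limma adjusted p = 0.00499 and 0.00501). Among H4 genes, HIST2H4A and HIST2H4B rose by 0.31 (SE 0.07, limma adjusted p = 0.00594), a call lost in a fit of only the libraries compared (adjusted p = 0.0667).

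The 4 falls in KO-labelled cells were in H2A and H2B genes. HIST2H2BE, an H2B gene, had 6.49 and 6.31 FPKM with SET siRNA, against 9.08 and 9.90 FPKM with control siRNA, and fell by 0.50 on the log2 scale (SE 0.06, limma adjusted p = 0.000352). HIST1H2BK had 138 and 139 FPKM with SET siRNA, against 172 and 161 FPKM with control siRNA, and fell by 0.26 (SE 0.05, limma adjusted p = 0.00201, or 0.0507 in a fit of only the libraries compared). In both genes the groups did not overlap. The H2A genes HIST1H2AG and HIST1H2AI fell by 1.04 (SE 0.23, limma adjusted p = 0.00779) and 0.96 (SE 0.27, limma adjusted p = 0.0217). HIST1H2AG had 5.06 and 3.39 FPKM with SET siRNA, against 9.36 and 9.90 FPKM with control siRNA, and HIST1H2AI had 1.19 and 0.539 FPKM with SET siRNA, against 2.44 and 2.71 FPKM with control siRNA. Both calls were lost without SET siRNA replicate 2, which left 2 of the 4 falls. Of the 10 called members, 5 were called under every alternative tried: HIST1H1C, HIST2H2AA3, HIST2H2AA4, HIST2H2AC and HIST2H2BE.

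With SET siRNA in WT-labelled cells the same linker gene rose and 13 core histone entries fell. The lower calls made up 37.1% of the 35 tested members, against 24.0% of all tested entries, and the 5 higher calls 14.3%, against 30.8% of all. The members' median log2 change was -0.29, against 0.04 over all tested entries. HIST1H1C had 163, 165 and 156 FPKM with SET siRNA, against 100, 106 and 86.9 FPKM with control siRNA, a log2 change of 0.72 (SE 0.08, limma adjusted p = 5.60e-05). HIST1H2BK had 127, 128 and 123 FPKM with SET siRNA, against 210, 204 and 208 FPKM with control siRNA, and fell by 0.71 (SE 0.04, limma adjusted p = 9.79e-07). The 2 most abundant members therefore moved in opposite directions, each with no overlap between the groups.

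By type, 5 of 8 tested H2B genes, 3 of 10 H2A, 2 of 6 H3 and 3 of 9 H4 genes were lower in WT-labelled cells with SET siRNA, and no H2B or H3 gene was higher. Of all tested entries 24.0% were lower and 30.8% higher, and each type holds few genes. The 3 H4 genes include HIST2H4A and HIST2H4B, which had equal values and count as 1 measurement. Among H2B genes, HIST1H2BD had 25.8, 23.0 and 25.0 FPKM with SET siRNA, against 43.0, 33.6 and 34.9 FPKM with control siRNA, and fell by 0.57 (SE 0.10, limma adjusted p = 0.000893). HIST2H2BC, which RefSeq now lists as a pseudogene, fell by 0.73 (SE 0.11, limma adjusted p = 0.000605), HIST1H2BJ by 0.53 (SE 0.16, 0.0168) and HIST2H2BE by 0.35 (SE 0.05, 0.000389). The HIST1H2BJ call was lost without control siRNA replicate 3 or SET siRNA replicate 1 (limma adjusted p = 0.0525 and 0.0589). HIST1H2BC, in contrast, had 15.1, 18.9 and 16.8 FPKM with SET siRNA and 12.2, 15.1 and 18.4 FPKM with control siRNA, and its groups overlapped (log2 change 0.16, SE 0.13, limma adjusted p = 0.327).

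Among H2A genes, HIST1H2AC had 23.6, 26.3 and 18.4 FPKM in WT-labelled cells with SET siRNA, against 49.4, 42.9 and 36.3 FPKM with control siRNA, and fell by 0.89 (SE 0.15, limma adjusted p = 0.000822). Its divergent neighbour HIST1H2BC, 240 bases away in the files, was not called in this comparison. HIST1H2AG fell by 1.25 (SE 0.19, limma adjusted p = 0.000507), with 3.09, 3.51 and 5.58 FPKM with SET siRNA, against 9.15, 13.0 and 10.6 FPKM with control siRNA, and HIST1H2AI fell by 0.94 (SE 0.22, limma adjusted p = 0.00588). The HIST2 genes HIST2H2AA3 and HIST2H2AA4 went the other way, with 26.9, 26.2 and 27.0 FPKM for HIST2H2AA3 with SET siRNA, against 19.9 to 22.9 FPKM with control siRNA, a log2 change of 0.33 (SE 0.10, limma adjusted p = 0.0173). That call was lost without control siRNA replicate 2 or 3 (limma adjusted p = 0.0598 and 0.0502).

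Among H3 genes, 2 were called, and both were lower. HIST1H3H had 1.94, 1.13 and 0.907 FPKM in WT-labelled cells with SET siRNA, against 4.40, 3.44 and 3.77 FPKM with control siRNA, and fell by 1.09 (SE 0.18, limma adjusted p = 0.000810). HIST1H3B fell by 0.57 (SE 0.13, limma adjusted p = 0.00489). H4 genes were split. HIST1H4I had 1.20, 0.376 and 0 FPKM with SET siRNA, against 3.25, 2.45 and 3.13 FPKM with control siRNA, and fell by 1.44 (SE 0.24, limma adjusted p = 0.000908). HIST2H4A and HIST2H4B fell by 0.30 (SE 0.05, limma adjusted p = 0.00125). HIST1H4H had 20.3, 13.9 and 21.3 FPKM with SET siRNA and 12.7, 11.5 and 14.4 FPKM with control siRNA, a rise of 0.48 (SE 0.15, limma adjusted p = 0.0232) although the groups overlapped, and HIST1H4E rose by 0.84 (SE 0.30, limma adjusted p = 0.0391). The HIST1H4H and HIST1H4E calls were each lost without any of several single libraries, and of the 5 higher calls 2 were kept without WT control siRNA replicate 2, and 3 without WT control siRNA replicate 1 or 3 or without WT SET siRNA replicate 1 or 3. Of the 18 called members 13 were called under every alternative, HIST1H1C the only one of them that rose.

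**Figure D2:**
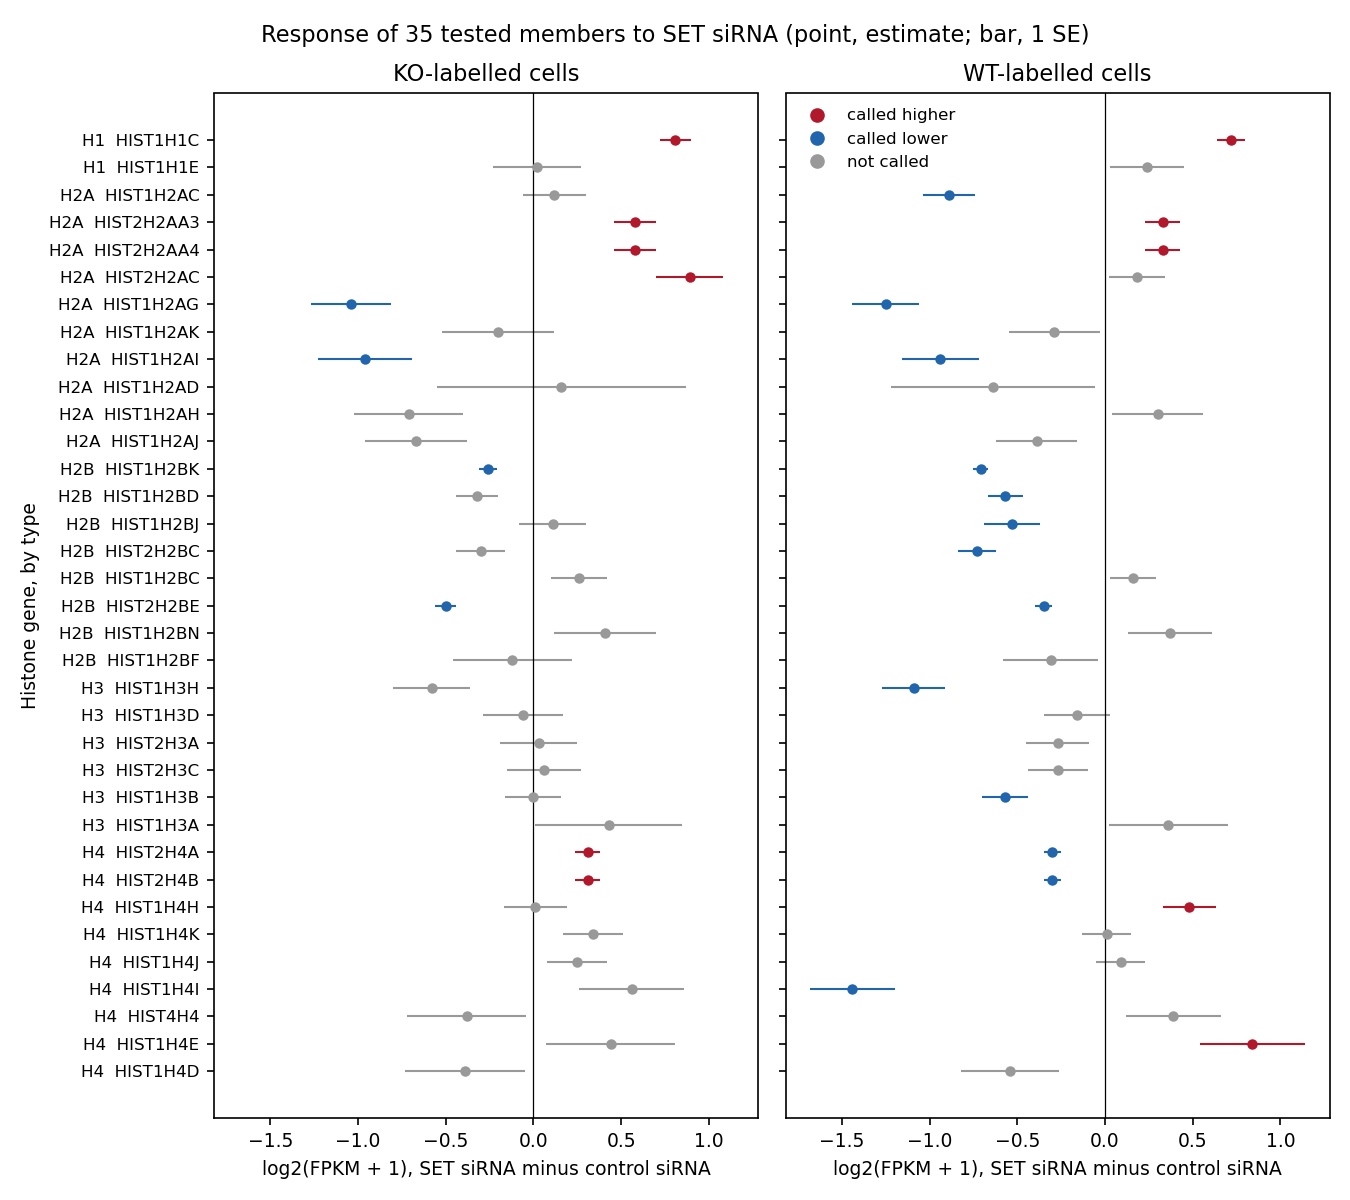
Log2 change of FPKM + 1 with SET siRNA against control siRNA for the 35 tested members, in KO-labelled cells on the left and WT-labelled cells on the right, ordered by histone type and then by mean FPKM. Points are limma estimates, bars are 1 SE and colours mark calls at an adjusted p below 0.05. HIST1H1C is high in both panels, whereas 13 entries are lower in WT-labelled cells and 4 in KO-labelled cells.

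The difference between the responses was tested as the change with SET siRNA in KO-labelled cells minus that in WT-labelled cells. It was positive for 27 of 35 members, and 5 were called higher (14.3%), against 8.60% of all tested entries. None was called lower, against 10.5% of all tested entries; at an unadjusted p below 0.05, 9 were higher and 1 lower. The median was 0.21, against -0.03 over all. HIST1H2BK differed by 0.45 (SE 0.06, limma adjusted p = 0.00170), since it fell in both lines and fell further in WT-labelled cells. HIST2H4A and HIST2H4B differed by 0.60 (SE 0.08, limma adjusted p = 0.00234), with 33.3 and 29.2 FPKM in KO-labelled cells with SET siRNA, against 25.8 and 24.3 FPKM with control siRNA, and with 23.1, 21.9 and 23.2 FPKM in WT-labelled cells with SET siRNA, against 28.6, 28.0 and 28.0 FPKM with control siRNA. The H4 pair was thus higher with SET siRNA in KO-labelled cells and lower with it in WT-labelled cells.

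HIST1H2AC differed by 1.01 (SE 0.23, limma adjusted p = 0.0185). It had 20.9 and 17.5 FPKM in KO-labelled cells with SET siRNA, against 19.2 and 15.9 FPKM with control siRNA, which overlapped, whereas WT-labelled cells showed the fall given above. The call was lost without KO control siRNA replicate 2 (limma adjusted p = 0.0693) or KO SET siRNA replicate 1 (0.0808). HIST1H4I differed by 1.99 (SE 0.38, limma adjusted p = 0.00953), with 4.60 and 3.81 FPKM in KO-labelled cells with SET siRNA, against 2.90 and 2.20 FPKM with control siRNA, and its call was lost with a pseudocount of 0.1 (0.0549). Counting identical or overlapping entries once left 3 calls. Without KO control siRNA replicate 1 the number of calls was 11. HIST1H1C had a difference of 0.09 (SE 0.12, limma adjusted p = 0.609).

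**Figure D3:**
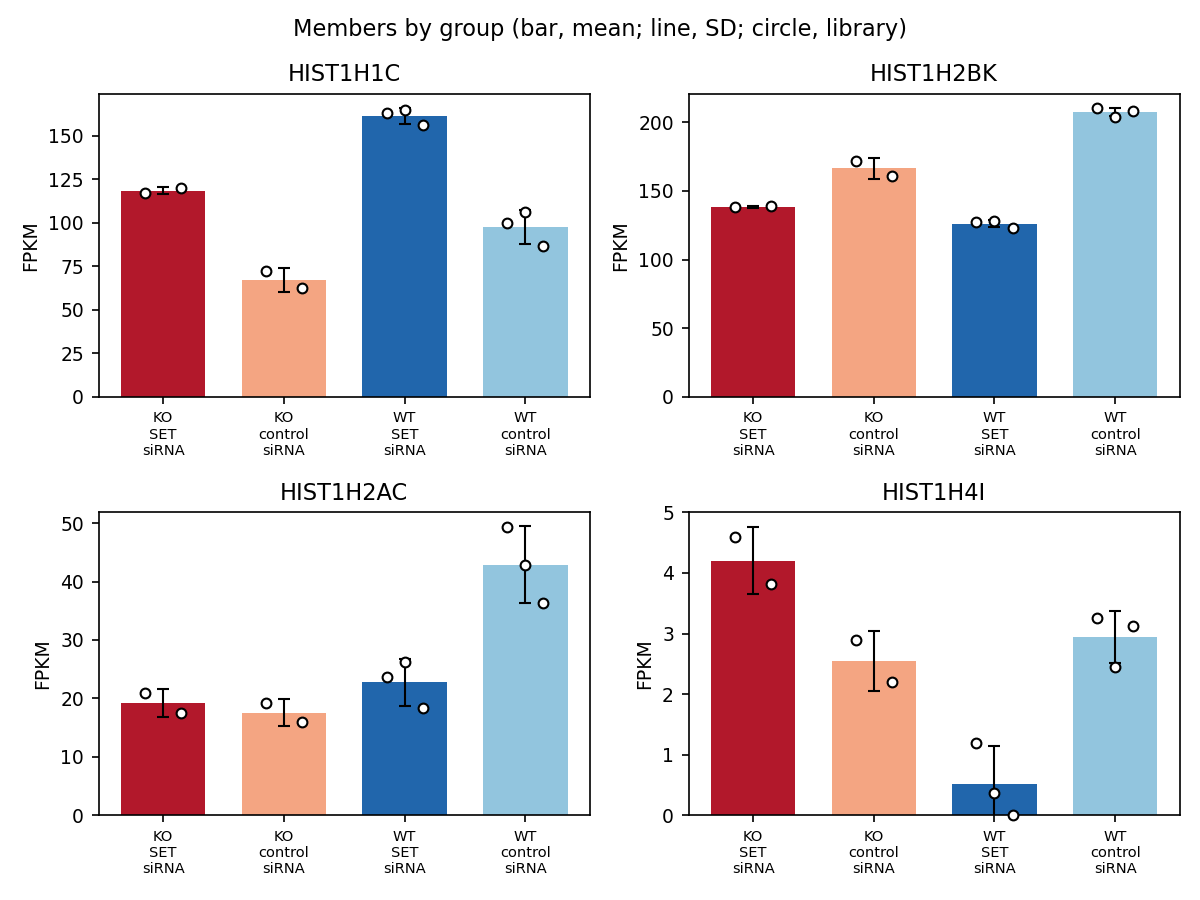
FPKM of HIST1H1C, HIST1H2BK, HIST1H2AC and HIST1H4I in the 4 groups, from KO-labelled cells with SET siRNA on the left to WT-labelled cells with control siRNA on the right. Bars are means, lines are SD and circles are libraries. HIST1H1C is higher with SET siRNA in both lines, and HIST1H2AC stands apart in WT-labelled cells with control siRNA at 36.3 to 49.4 FPKM.

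With control siRNA, 12 of 35 tested members, of all types but H3, were lower in KO-labelled than in WT-labelled cells, and 6 of the 12 were called under every alternative. The 12 lower calls made up 34.3% of the members, against 22.2% of all tested entries, and 0 were called higher by limma, against 25.7% of all; at an unadjusted p below 0.05, 0 were higher and 13 lower. The difference was positive for 9 members and negative for 26. The members' median log2 difference was -0.17, against 0.02 over all. This comparison uses the same WT control libraries as the siRNA comparison in WT-labelled cells, and the values are given side by side only. HIST1H2AC had 19.2 and 15.9 FPKM in KO-labelled cells, against 49.4, 42.9 and 36.3 FPKM in WT-labelled cells, a log2 difference of -1.24 (SE 0.17, limma adjusted p = 0.000359). HIST1H2BD had 25.2 and 22.1 FPKM in KO-labelled cells, against 43.0, 33.6 and 34.9 FPKM in WT-labelled cells, a difference of -0.62 (SE 0.11, limma adjusted p = 0.00145). HIST1H2BC had 9.09 and 9.74 FPKM in KO-labelled cells, against 12.2, 15.1 and 18.4 FPKM in WT-labelled cells, a difference of -0.62 (SE 0.14, limma adjusted p = 0.00698). These groups did not overlap, and for this pair of lines the divergent neighbours HIST1H2AC and HIST1H2BC were both lower.

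HIST1H1C had a log2 difference of -0.53 (SE 0.08, limma adjusted p = 0.000995) between KO-labelled and WT-labelled cells with control siRNA, and HIST1H2BK and HIST2H2BE had differences of -0.32 (SE 0.04, limma adjusted p = 0.000305) and -0.35 (SE 0.06, limma adjusted p = 0.00115). These 3 genes with HIST1H2AC, HIST1H2BD and HIST1H2BC, 6 in all, were called under every alternative. HIST1H4H, HIST1H2BJ, HIST2H2AA3 with its copy and the HIST2H4A and HIST2H4B pair were also called, with log2 differences of -0.51, -0.48, -0.43 and -0.16. Without KO control siRNA replicate 2 these were lost and 6 of the 12 calls were left, and a fit of only the libraries compared kept 7 of the 12. That library had the lower value of its pair for 12 of the 17 members with a mean of at least 5 FPKM, with 62.4 against 72.1 FPKM for HIST1H1C and 13.1 against 18.0 FPKM for HIST2H2AA3. The 17 include the near-identical copies HIST2H4A with HIST2H4B and HIST2H2AA3 with HIST2H2AA4. The same count was not made over all entries, so it does not show that this library was low for histone genes in particular.

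With SET siRNA, KO-labelled cells had both higher and lower histone genes than WT-labelled cells. Of 35 members 6 were called higher (17.1%), against 23.6% of all tested entries, and 5 lower (14.3%), against 24.8% of all, with a median of 0.01 for the members and -0.00 over all. The lower genes were HIST1H4H with a log2 difference of -0.98 (SE 0.17, limma adjusted p = 0.00116), HIST1H2BC with -0.51, HIST2H2BE with -0.50, HIST1H1C with -0.44 and HIST1H2BD with -0.38. HIST1H4H had 7.86 and 9.73 FPKM in KO-labelled cells, against 20.3, 13.9 and 21.3 FPKM in WT-labelled cells. The higher entries were HIST1H4I with a difference of 1.84 (SE 0.27, limma adjusted p = 0.000475), HIST2H2AC with 0.50, HIST2H4A and HIST2H4B with 0.44, HIST2H2BC with 0.44 and HIST1H2BK with 0.13. Without KO SET siRNA replicate 1, 3 of the 6 higher and 3 of the 5 lower calls were kept, the lost lower calls being HIST1H2BC and HIST1H2BD (limma adjusted p = 0.103 and 0.125). All 5 lower genes were also called lower in KO-labelled cells with control siRNA. Of them, HIST1H1C and HIST2H2BE kept both calls under every alternative.

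Of the 35 tested members 15 had no call in any of the 5 comparisons, namely 1 of 2 H1, 4 of 10 H2A, 2 of 8 H2B, 4 of 6 H3 and 4 of 9 H4 genes. The share of all tested entries without any call was not counted, so whether 15 of 35 is many or few is not known. The 4 H3 genes include the near-identical copies HIST2H3A and HIST2H3C. The 4 H2A genes, HIST1H2AD, HIST1H2AH, HIST1H2AJ and HIST1H2AK, averaged between 0.646 and 1.52 FPKM. HIST1H1E, the only other H1 gene tested, averaged 1.29 FPKM. HIST1H4J and HIST1H4K averaged 6.03 and 6.05 FPKM, with log2 changes with SET siRNA of 0.25 (SE 0.17) and 0.34 (SE 0.17) in KO-labelled cells and 0.09 (SE 0.14) and 0.01 (SE 0.14) in WT-labelled cells. The H2B gene HIST1H2BN averaged 4.85 FPKM, the H3 genes HIST1H3D and HIST2H3A 2.47 and 2.06 FPKM, and HIST4H4, the single H4 gene on chromosome 12, had group means of 0.766 to 2.11 FPKM. The difference between its responses in the 2 lines had an SE of 0.43 on the log2 scale, and a missed call does not show that a gene kept its level.

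H1 genes summed to 120 ± 2.51 FPKM in KO-labelled cells with SET siRNA and 68.9 ± 7.25 FPKM with control siRNA (SD, n = 2 each), and to 163 ± 5.12 FPKM in WT-labelled cells with SET siRNA and 99.1 ± 10.3 FPKM with control siRNA (SD, n = 3 each). H2B genes summed to 222 ± 0.602 FPKM in KO-labelled cells with SET siRNA and 257 ± 13.7 FPKM with control siRNA, and to 218 ± 1.98 FPKM in WT-labelled cells with SET siRNA and 330 ± 7.46 FPKM with control siRNA. H1 thus made up 22.4% of the members' summed FPKM with SET siRNA and 14.1% with control siRNA in KO-labelled cells, and 28.6% with SET siRNA and 15.4% with control siRNA in WT-labelled cells. H2B made up 41.4% with SET siRNA and 52.7% with control siRNA in KO-labelled cells, and 38.3% with SET siRNA and 51.2% with control siRNA in WT-labelled cells. The H1 share rests almost wholly on HIST1H1C and the largest part of the H2B share on HIST1H2BK.

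H2A genes summed to 89.7 ± 4.25 FPKM in KO-labelled cells with SET siRNA and 74.2 ± 10.6 FPKM with control siRNA, and to 95.1 ± 4.36 FPKM in WT-labelled cells with SET siRNA and 113 ± 8.30 FPKM with control siRNA. H4 sums were 86.9 to 98.7 FPKM with SET siRNA and 73.3 to 77.6 FPKM with control siRNA in KO-labelled cells, while the WT-labelled groups overlapped, at 74.7 to 85.7 FPKM with SET siRNA and 83.3 to 92.7 FPKM with control siRNA. H3 sums were small, between 10.2 and 18.9 FPKM in all libraries. All members together summed to 537 ± 12.3 FPKM in KO-labelled cells with SET siRNA and 489 ± 37.5 FPKM with control siRNA, and to 569 ± 8.13 FPKM in WT-labelled cells with SET siRNA and 645 ± 20.4 FPKM with control siRNA. The log2 ratio of the total with SET siRNA to that with control siRNA was 0.14 in KO-labelled cells and -0.18 in WT-labelled cells, so the total moved less than either of its 2 leading genes did in WT-labelled cells. No test is given for these sums.

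**Figure D4:**
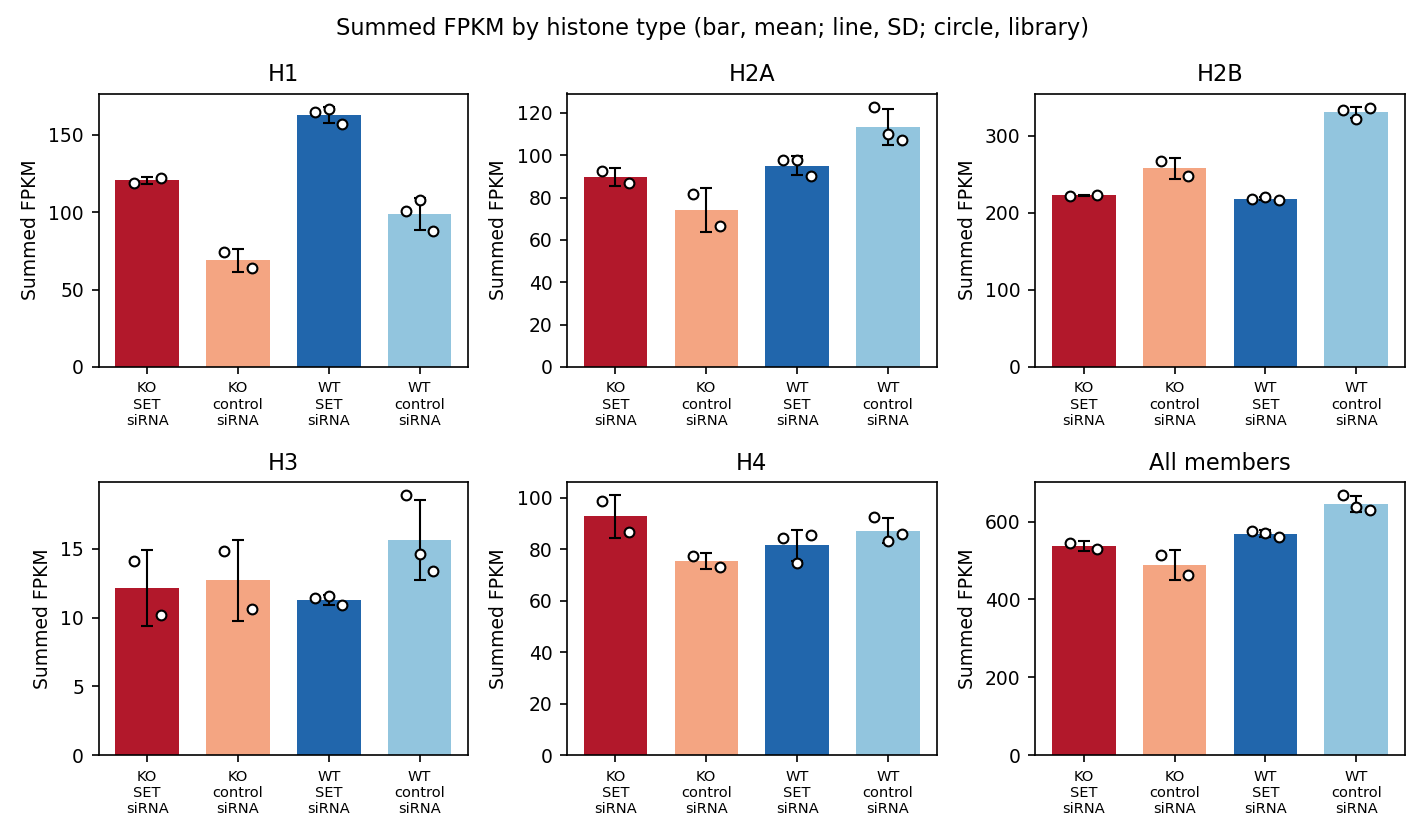
Summed FPKM of the members of each histone type and of all 72 members, in the 4 groups. Bars are means, lines are SD and circles are libraries. H1 is higher with SET siRNA in both lines and H2B lower, and the total of WT-labelled cells with control siRNA, 630 to 668 FPKM, is above every other library.

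Promoter and hairpin letters were set beside the calls as a description. In WT-labelled cells with SET siRNA, 5 of 11 tested members with the octamer were lower (45.5%) and 0 higher (median log2 change -0.39), and of 22 without it 7 were lower (31.8%) and 5 higher (22.7%; median -0.13), where 24.0% of all tested entries were lower and 30.8% higher. In KO-labelled cells 3 of 11 with the octamer were lower (27.3%) and 1 higher (9.09%), and of 22 without it 1 was lower (4.55%) and 5 higher (22.7%), where 17.9% of all were lower and 19.8% higher. The tested members HIST2H2BC and HIST1H2AH had no promoter to search and are left out, although HIST2H2BC was called lower in WT-labelled cells. These shares rest on few genes, and their difference was not tested. The octamer is confined to promoters of H2A and H2B genes in the table, apart from 1 listed for the H3 gene HIST1H3D. That promoter is the same stretch as the one listed for the H2A gene HIST1H2AD, and both genes are among the 11. The letters and the type therefore cannot be told apart. Of 19 tested members with a hairpin match 8 were lower (42.1%) and 4 higher (21.1%) in WT-labelled cells, and of 16 without a match 5 were lower (31.2%) and 1 higher (6.25%). In KO-labelled cells 2 with a match were lower (10.5%) and 4 higher (21.1%), and 2 without were lower (12.5%) and 2 higher (12.5%). Many models without a match are short, such as the 381 bases of HIST1H2BK, and may stop before a hairpin. The split therefore cannot be read as genes with and without the hairpin. In divergent pairs the levels could differ widely: HIST1H2AH averaged 0.738 FPKM and HIST1H2BK, 270 bases away, 161 FPKM. HIST1H2AG averaged 7.26 FPKM and HIST1H2BJ, 241 bases away, 22.9 FPKM, while HIST2H2AC and HIST2H2BE, 292 bases apart, averaged 10.2 and 9.71 FPKM and moved in opposite directions in KO-labelled cells with SET siRNA.

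Genes that make and process histone mRNA were compared in a list of 25 measured genes. In KO-labelled cells with SET siRNA 7 were higher (28.0%) and 6 lower (24.0%), near the 19.8% and 17.9% of all tested entries. In WT-labelled cells with SET siRNA 5 of the 25 were higher, against 30.8% of all, and 9 lower (36.0%), against 24.0% of all. The median log2 changes were 0.12 in KO-labelled and -0.07 in WT-labelled cells. SLBP, the hairpin-binding protein, had 46.5 and 48.1 FPKM in KO-labelled cells with SET siRNA, against 43.0 and 44.0 FPKM with control siRNA (log2 change 0.12, SE 0.05, limma adjusted p = 0.0803). In WT-labelled cells it had 27.2, 27.3 and 27.3 FPKM with SET siRNA, against 38.2, 40.8 and 38.2 FPKM with control siRNA, and fell by 0.50 (SE 0.04, limma adjusted p = 9.42e-06). The responses of SLBP differed between the lines by 0.62 (SE 0.06, limma adjusted p = 0.000495).

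NPAT, the coactivator of histone gene transcription, had 11.9 and 12.5 FPKM in KO-labelled cells with SET siRNA, against 10.00 and 11.0 FPKM with control siRNA, and 9.10, 9.45 and 8.77 FPKM in WT-labelled cells with SET siRNA, against 7.40, 8.42 and 7.42 FPKM with control siRNA. It rose with SET siRNA in WT-labelled cells by 0.21 (SE 0.06, limma adjusted p = 0.0174) and was higher by 0.39 in KO-labelled than in WT-labelled cells with either siRNA. CCNE2, the cyclin E2 subunit of the kinase that acts on NPAT, fell by 1.07 (SE 0.06, limma adjusted p = 1.77e-06) in WT-labelled cells and by 0.41 (SE 0.08, limma adjusted p = 0.00288) in KO-labelled cells. E2F1, a transcription factor of the G1 to S phase transition, rose by 0.31 (SE 0.08, limma adjusted p = 0.0118) in KO-labelled cells and fell by 0.58 (SE 0.06, limma adjusted p = 6.79e-05) in WT-labelled cells. ZNF473, a zinc finger protein of histone pre-mRNA processing, rose in both lines, by 0.65 (SE 0.05, limma adjusted p = 4.42e-05) in KO-labelled cells and by 0.43 (SE 0.04, limma adjusted p = 5.13e-05) in WT-labelled cells. Between lines with control siRNA, 10 of the 25 genes were higher (40.0%) and 1 lower in KO-labelled cells, against 25.7% and 22.2% of all. With SET siRNA 16 were higher (64.0%) and 0 lower in KO-labelled cells, against 23.6% and 24.8% of all tested entries.

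**Figure D5:**
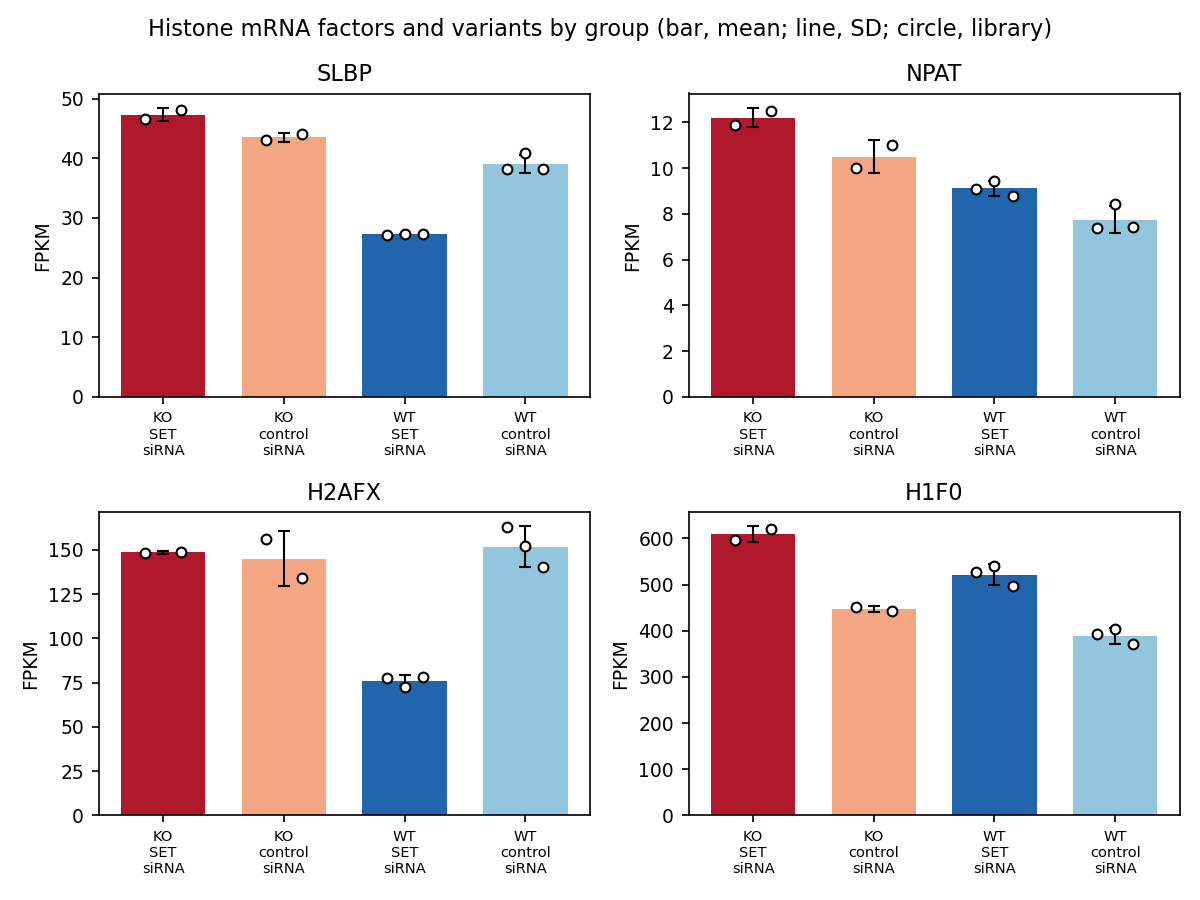
FPKM of SLBP, NPAT, H2AFX and H1F0 in the 4 groups, from KO-labelled cells with SET siRNA on the left to WT-labelled cells with control siRNA on the right. Bars are means, lines are SD and circles are libraries. SLBP and H2AFX are lowest in WT-labelled cells with SET siRNA, whereas H1F0 is higher with SET siRNA in both lines.

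Among 30 replication genes of S phase, 12 were higher (40.0%) and 1 lower (3.33%) in KO-labelled cells with SET siRNA (median log2 change 0.15), against 19.8% and 17.9% of all tested entries. In WT-labelled cells 0 were higher and 26 lower (86.7%), against 30.8% and 24.0% of all (median -0.43). The responses differed between lines for 23 of the 30 (76.7%), all higher in KO-labelled cells (median difference 0.62), against 8.60% of all entries. UHRF1, a factor of DNA methylation at the replication fork, had a log2 change of 0.21 (SE 0.08, limma adjusted p = 0.0623) in KO-labelled cells. In WT-labelled cells it had 11.8, 12.3 and 13.2 FPKM with SET siRNA, against 26.2, 24.6 and 24.3 FPKM with control siRNA, and fell by 0.95 (SE 0.06, limma adjusted p = 3.69e-06). MCM2, a subunit of the replicative helicase, rose by 0.25 (SE 0.08, limma adjusted p = 0.0300) in KO-labelled cells and fell by 0.71 (SE 0.06, limma adjusted p = 1.88e-05) in WT-labelled cells. Between lines with control siRNA, 7 of the 30 were higher (23.3%) and 8 lower (26.7%) in KO-labelled cells, near the 25.7% and 22.2% of all entries. With SET siRNA 26 were higher (86.7%), against 23.6% of all, and 1 lower (3.33%), against 24.8% of all. The share of cells in S phase was not measured here.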

How the data were processed

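Total RNA gave 10 libraries with a TruSeq RNA kit, per the labels. bcl2fastq 1.8.4, TopHat2 2.0.4 and Cufflinks 2.0.2 were used, per the submitters' processing notes. The deposited tables hold the authors' FPKM for each gene, its interval and its status, per the file headers, and all 720 values of the members had the status OK. No source used here gives the genome build, the annotation or the depth. Groups were taken from the sample labels. The reported fit treated the samples as unpaired. Correlations of deviations of same-numbered libraries were -0.101 to 0.263, the highest being 0.233 and 0.263 between control siRNA libraries of the 2 lines. In groups of 2 the deviations mirror each other, so these values cannot exclude pairing.

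Entries with at least 1 FPKM in at least 2 libraries were tested (14813 of 25593; 10780 not tested). limma 3.58.1 in R 4.3.3 fitted log2(FPKM + 1) of all 10 libraries in 4 groups (eBayes with trend), and Benjamini-Hochberg adjusted p-values over all tested entries below 0.05 were called. Every adjusted p is from limma. The pseudocount shrinks the changes of low genes. In simulated data 200 of 14813 genes were changed on the scale of log2(FPKM + 1), all with a mean of at least 2 FPKM. The comparison of SET with control siRNA found 97% of 2-fold changes and 81% of those of 1.5-fold in KO-labelled cells. In WT-labelled cells it found 99% and 85%. Recovery for genes with lower means, some tested members among them, was not simulated. Hairpins came from GENCODE release 29 transcripts and promoters from RefSeq (GRCh38.p14). Tables and figures were made in Python 3.11.15 with numpy 2.4.6, pandas 2.3.3 and matplotlib 3.10.9.

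The members and gene lists were chosen with earlier results of these data known. Named members were up to 15 called members per direction and comparison, the 3 most abundant of each type and HIST1H4I. From the other lists up to 4 called genes per comparison were named, with SLBP, NPAT, CDKN1A and SET always. The lists were histone variants, histone transcription and processing, histone chaperones, S phase replication, other RNAs without a poly(A) tail, and osteoblast, epithelial, blood and endothelial markers. Alternatives were a pseudocount of 0.1, 2 other filters, scaling by quantiles or by median of ratios, no trend, a fit of only the libraries compared, copies counted once, a replicate block and leaving out each library. One check of the line labels is not reported here.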

Additional observations from a re-analysis of the deposited data

Results flagged for a closer look

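For 5 entries a test of the difference itself separated the SET siRNA responses of the lines, each with a higher change in KO-labelled than in WT-labelled cells. The differences in log2(FPKM + 1) were 1.99 for HIST1H4I, 1.01 for HIST1H2AC, 0.60 for HIST2H4A, 0.60 for HIST2H4B and 0.45 for HIST1H2BK. HIST2H4A and HIST2H4B had equal values and count as 1 measurement, and HIST1H4I lies within the positions of HIST1H2BK. Groups of 2 or 3 libraries are too small for a search for libraries far from their group.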

How the results depend on the processing

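Of 1059 recomputed values of single called members, 973 kept their direction and call, 86 kept the direction and lost the call, and 0 reversed. Calls that held under every alternative numbered 5 of 10 for SET siRNA in KO-labelled cells, 13 of 18 in WT-labelled cells, 3 of 5 for the difference of the responses, and 6 of 12 and 6 of 11 for KO-labelled against WT-labelled cells with control and SET siRNA. Leaving out 1 library at a time gave 2 to 6 lower calls for SET siRNA in KO-labelled cells, 2 to 5 higher calls in WT-labelled cells, 4 to 11 higher and 0 to 1 lower calls for the difference of responses, 0 to 1 higher and 6 to 12 lower calls between lines with control siRNA, 3 to 8 higher calls between lines with SET siRNA, and 0.24 to 0.40 for the difference of the log2 ratios of the members' total. Counting copies or overlapping entries once left 3 higher calls for the difference of responses, also when entries equal in at least 8 libraries counted as copies, which was added after seeing the data, and moved the log2 ratio of the members' total between lines with SET siRNA to -0.12. With no filter 1 member was lower for the difference of responses. A fit of only the libraries compared gave 9 lower calls between lines with SET siRNA. With the replicate block 1 member was higher in KO-labelled cells with control siRNA. Between lines with control siRNA, a fit of only the libraries compared gave 8 lower calls, 7 of them among the 12 reported. For the members' total, the median log2 change over tested members in place of the log2 ratio of sums was 0.03 for SET siRNA in KO-labelled cells, -0.29 in WT-labelled cells, 0.21 for the difference of responses, -0.17 between lines with control siRNA and 0.01 with SET siRNA, and median-of-ratios scaling gave -0.23 in WT-labelled cells. The cause was not tested. Low values limit most members: 37 of 72 were not tested, and the authors' intervals had median half-widths of up to 121% of the value among those tested.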

Other observations

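Histone variants outside the clusters, which are made throughout the cell cycle or from polyadenylated mRNA, were tested for 13 of 20 genes. With SET siRNA 3 were higher and 3 lower in KO-labelled cells (23.1% each), near the 19.8% and 17.9% of all tested entries. In WT-labelled cells 2 were higher (15.4%), against 30.8% of all, and 7 lower (53.8%), against 24.0% of all. The median log2 changes were 0.02 in KO-labelled and -0.25 in WT-labelled cells. H1F0, the linker variant of non-dividing cells, had 597 and 621 FPKM in KO-labelled cells with SET siRNA, against 451 and 442 FPKM with control siRNA, and 528, 540 and 497 FPKM in WT-labelled cells with SET siRNA, against 392, 404 and 371 FPKM with control siRNA. It rose by 0.45 (SE 0.06, limma adjusted p = 0.000479) in KO-labelled cells and by 0.42 (SE 0.05, limma adjusted p = 8.40e-05) in WT-labelled cells, as the clustered linker gene HIST1H1C did. H2AFX, the variant phosphorylated at DNA breaks, had 148 and 149 FPKM in KO-labelled cells with SET siRNA, against 156 and 134 FPKM with control siRNA. In WT-labelled cells it had 77.7, 72.5 and 78.1 FPKM with SET siRNA, against 163, 152 and 140 FPKM with control siRNA, and fell by 0.98 (SE 0.07, limma adjusted p = 5.02e-06). CENPA, the H3 variant of centromeres, fell by 0.85 (SE 0.07, limma adjusted p = 8.72e-06) in WT-labelled cells. The responses of 6 of the 13 (46.2%) differed between the lines, all higher in KO-labelled cells, against 8.60% of all entries. Between lines, 5 were higher (38.5%) and 4 lower (30.8%) in KO-labelled cells with control siRNA, against 25.7% and 22.2% of all, and 8 higher (61.5%) and 1 lower (7.69%) with SET siRNA, against 23.6% and 24.8% of all.

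Of 20 histone chaperones and partners, 2 were higher (10.0%) and 6 lower (30.0%) in KO-labelled cells with SET siRNA, and 0 were higher and 16 lower (80.0%) in WT-labelled cells, SET itself among the lower genes of both lines (median log2 changes 0.01 and -0.31). CHAF1A, a subunit of the assembly factor that deposits H3 and H4 on new DNA, fell by 0.73 (SE 0.05, limma adjusted p = 3.79e-06) in WT-labelled cells, and HJURP, the chaperone of CENPA, fell by 0.66 (SE 0.04, limma adjusted p = 1.32e-06). The responses of 10 of the 20 were higher in KO-labelled cells and that of 1, NAP1L1, lower. Between lines, 11 were higher (55.0%) and 2 lower (10.0%) in KO-labelled cells with control siRNA, and 16 higher (80.0%) and 0 lower with SET siRNA. The other shares of all entries are those given for the variants. Of 18 tested RNAs without a poly(A) tail, 1 was higher (5.56%) and 0 lower in KO-labelled cells with SET siRNA, against 19.8% and 17.9% of all entries. In WT-labelled cells 2 were higher (11.1%) and 1 lower (5.56%), against 30.8% and 24.0% of all. The summed FPKM of all 28 such RNAs with an entry, tested or not, was 325 to 1208 FPKM in KO-labelled cells with SET siRNA and 335 to 391 FPKM with control siRNA. In WT-labelled cells this sum was 579 to 1058 FPKM with SET siRNA and 497 to 912 FPKM with control siRNA. Its part in the histone results was not tested.

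As a description over the 10 libraries, HIST1H1C was most like HIST2H2AA3 and HIST2H2AA4 among the members (Pearson r = 0.931 each). HIST1H2BK was most like HIST1H3H (r = 0.904), and HIST1H3H also like HIST1H2AI (r = 0.910). These values rest on 4 groups and share their libraries.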
